A study of Mus musculus with 20 samples.

Results

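Control mouse hearts taken 2 weeks after transverse aortic constriction (TAC) were compared with control hearts taken 2 weeks after a sham operation. The comparison used 4 of the 20 hearts of the series, namely hearts 11 and 32 after TAC and hearts 12 and 16 after sham, as their labels state. Control mice were C57BL/6 with floxed Wnt5a alleles and without the Cre transgene. The other genotype, CKO, carried the same floxed alleles together with Myh6-Cre/Esr 1, a Cre recombinase driven by a heart muscle promoter and joined to part of the oestrogen receptor. The series also held both genotypes at the end of tamoxifen treatment and 4 weeks after either operation, in 10 groups of 2 hearts. For the operated hearts, the labels give neither sex, age and dissection nor whether tamoxifen had been given. Each label names a separate heart, but not whether hearts were processed on separate days, and p-values measure the spread between these samples only.

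TAC narrows the aorta and makes the left ventricle pump against a high pressure. The heart muscle cells (myocytes) enlarge and take up again genes that are active before birth, such as those of the natriuretic peptides. Fibroblasts lay down collagen and other matrix, and the muscle turns away from fatty acids, the main fuel of the adult heart. The series title names Wnt5a, a secreted Wnt ligand, and YAP, a co-activator of TEAD transcription factors, as the study's subject.

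Messenger RNA was given as FPKM, fragment counts scaled to transcript length and library size, for 23284 genes. In the 4 hearts, 15009 to 15374 genes were above 0, the 10 most abundant genes took 22.5% to 24.3% of all FPKM, and sequencing depth relative to a common heart was 0.93 to 1.11. The sources used here do not give the absolute depth. Pearson's r across genes, which are not independent replicates, was 0.970 between the TAC hearts, 0.973 between the sham hearts and 0.945 to 0.951 between TAC and sham hearts. The 12589 genes that averaged 0.5 FPKM or more across all hearts were tested. Log2 differences are TAC minus sham of log2(FPKM + 0.5), which understates the change of genes with low values, and carry the standard error (SE) of 1 limma model over all 20 hearts. A gene was called at a Benjamini-Hochberg adjusted p under 0.05.

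The labels were checked first. Esr1, part of the Cre transgene, stood at 0.307 and 0.339 FPKM in the sham hearts and 0.228 and 0.185 FPKM in the TAC hearts, near 0 in all 4, against at least 197 FPKM in every CKO heart. Myl2, the light chain that defines ventricular muscle, stood at 41290.0 and 38536 FPKM in the sham hearts and 28528 and 30151 FPKM in the TAC hearts (-0.44 ± 0.13, limma adjusted p = 0.024). The atrial genes Myl7, Myl4 and Sln set 1 heart of each group apart. Other atrial markers, Pam, Stard10, Sbk2 and Kcnj3, differed mainly between TAC and sham instead, with values given below. Myl7, the atrial myosin light chain, stood at 0.736 and 32.2 FPKM in the sham hearts and 72.6 and 1.66 FPKM in the TAC hearts, so it was high in TAC heart 11 and sham heart 16 and low in the other heart of each group. Myl4 followed with 4.79 and 26.5 FPKM in the sham hearts and 64.3 and 5.64 FPKM in the TAC hearts, Sln with 0 and 4.07 FPKM in the sham hearts and 24.7 and 0 FPKM in the TAC hearts, and Bmp10 was listed at 0 in all 4. The TAC against sham comparison, and the tests of differences between responses, were therefore also computed without hearts in which Myl7 reached 10 FPKM. Those were hearts 11, 14, 16, 21 and 24. Heart 14 came from the CKO sham group of 2 weeks, and hearts 21 and 24 were the CKO tamoxifen-end group. Their removal leaves TAC heart 32 against sham heart 12 and takes the spread from the remaining groups, which hold fewer hearts. Below, this fit is called without hearts 11 and 16, and how far lost calls came from the fewer hearts was not tested. The medians and sign counts given below for 4 weeks and for CKO hearts include all hearts. Among those is CKO sham heart 14, with Myl7 at 372 FPKM. Calls were lost in limma for Myl2 with no filter, with quantile normalization, with only the compared groups fitted, with control hearts only, without heart 11, without heart 12, without heart 16, without heart 32 or without hearts 11 and 16 (adjusted p from 0.064 to 1). The log2 difference that moved by over 1.5 times was that of Myl2 (to 0.00 with quantile normalization). That method gives a gene of the same rank in every heart the same value, so it cannot show a change in such a gene. The 0.00 is therefore not evidence that Myl2 was unchanged.

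Between TAC and sham 2998 genes differed, 23.8% of those tested, with 1386 (11.0%) higher and 1612 (12.8%) lower. Of the higher genes 425 differed at least 2-fold and 63 at least 4-fold, and of the lower genes 239 and 14. Both TAC hearts lay above or below both sham hearts for each of these genes, as they did for 30.0% (above) and 31.3% (below) of all genes tested. The median of all tested genes was 0.00. In bulk tissue, a change in RNA per cell and a change in the number of cells of a type cannot be told apart. Without hearts 11 and 16 the counts were 483 higher (3.84%) and 636 lower (5.05%). Between the 2 TAC hearts 1.77% of genes differed at least 2-fold, and between the 2 sham hearts 1.73%.

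**Figure D1:**
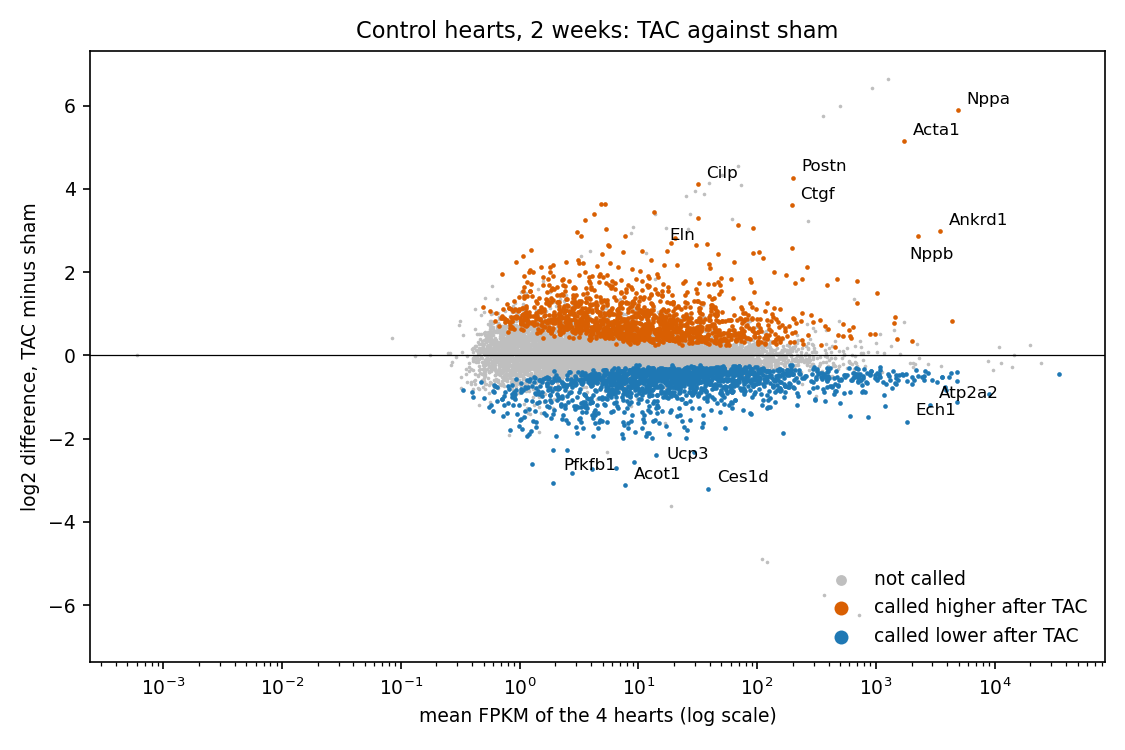
Log2 difference between TAC and sham control hearts at 2 weeks (y axis) against the mean FPKM of the 4 hearts (x axis, log scale), 1 point per tested gene. Orange and blue mark the 1386 genes called higher and the 1612 called lower, grey the rest, and the labelled rises, led by Nppa and Acta1, reach further from 0 than the labelled falls. The 13 grey points beyond 4 in size are microRNA and small nucleolar RNA genes, and Snora43, Snord89 and Lypd2, with 1 group listed at 0, and 40 genes at 0 in all 4 hearts are left off.

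Among called genes found in both groups, Nppa and Acta1 rose most. Nppa (chromosome 4, 148000722 to 148002079, plus strand of mm10), which encodes atrial natriuretic peptide, stood at 116 and 226 FPKM in the sham hearts and 9118 and 10098 FPKM in the TAC hearts. Both TAC hearts lay far above both sham hearts, and heart 32, with almost no Myl7, was as high as heart 11. The log2 difference was 5.89 ± 0.55 (SE), or 59.1-fold (limma adjusted p = 1.2e-05). Nppb, the gene of B-type natriuretic peptide, is the neighbour of Nppa and stood at 317 and 897 FPKM in the sham hearts and 3526 and 4268 FPKM in the TAC hearts. It was lowest in sham heart 12, and the groups did not overlap (2.86 ± 0.39, limma adjusted p = 2.3e-04). Acta1, the skeletal muscle actin that foetal heart also makes, stood at 47.7 and 185 FPKM in the sham hearts and 3165 and 3533 FPKM in the TAC hearts, with heart 12 again below heart 16 (5.15 ± 0.63, limma adjusted p = 1.0e-04). The sources used here do not say how reads shared among the similar actin genes were divided.

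Of 22 tested foetal and overload genes, 16 rose, 2 fell and 4 were not called, with a median of 1.88 against 0.00 over all genes. This list and those below were written with earlier results of these data known, so their counts and medians are descriptive. Some genes stand in several lists. Each count is to be read beside the 11.0% and 12.8% of all tested genes called higher and lower. Ankrd1, a stretch-responsive protein of the sarcomere and nucleus, stood at 829 and 737 FPKM in the sham hearts and 5939 and 6475 FPKM in the TAC hearts (2.99 ± 0.27, limma adjusted p = 1.0e-05). Xirp2, an actin-binding protein of myocyte junctions, went from 53.6 and 57.2 FPKM to 325 and 346, with hearts of a group close together (2.59 ± 0.18, limma adjusted p = 1.2e-06). Itgb1bp3, a kinase gene of NAD synthesis also called Nmrk2, rose by 2.83, Rcan1, an inhibitor of calcineurin, by 1.93, Uchl1 by 1.96, Fhl1 by 1.85 and the actin regulator Enah by 1.73. Myh7, the slow myosin heavy chain that typifies overload in rodents, stood at 12.0 and 177 FPKM in the sham hearts and 421 and 466 FPKM in the TAC hearts, so sham heart 16 was more than 10-fold above sham heart 12 and the test did not pass (3.23 ± 1.23, limma adjusted p = 0.073). Actc1, the main cardiac actin, had a difference of 0.00. Going down were Myh7b at -0.80 and Mfap3l at -0.91. Without hearts 11 and 16, 15 rose and 1 fell. Limma no longer called Mfap3l and Myh7b with only the compared groups fitted or without heart 32 and Myh7b without heart 12, without heart 16 or without hearts 11 and 16 (adjusted p from 0.06 to 0.26). The log2 difference moved by over 1.5 times for Myh7b (to -0.50 without heart 32).

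**Figure D2:**
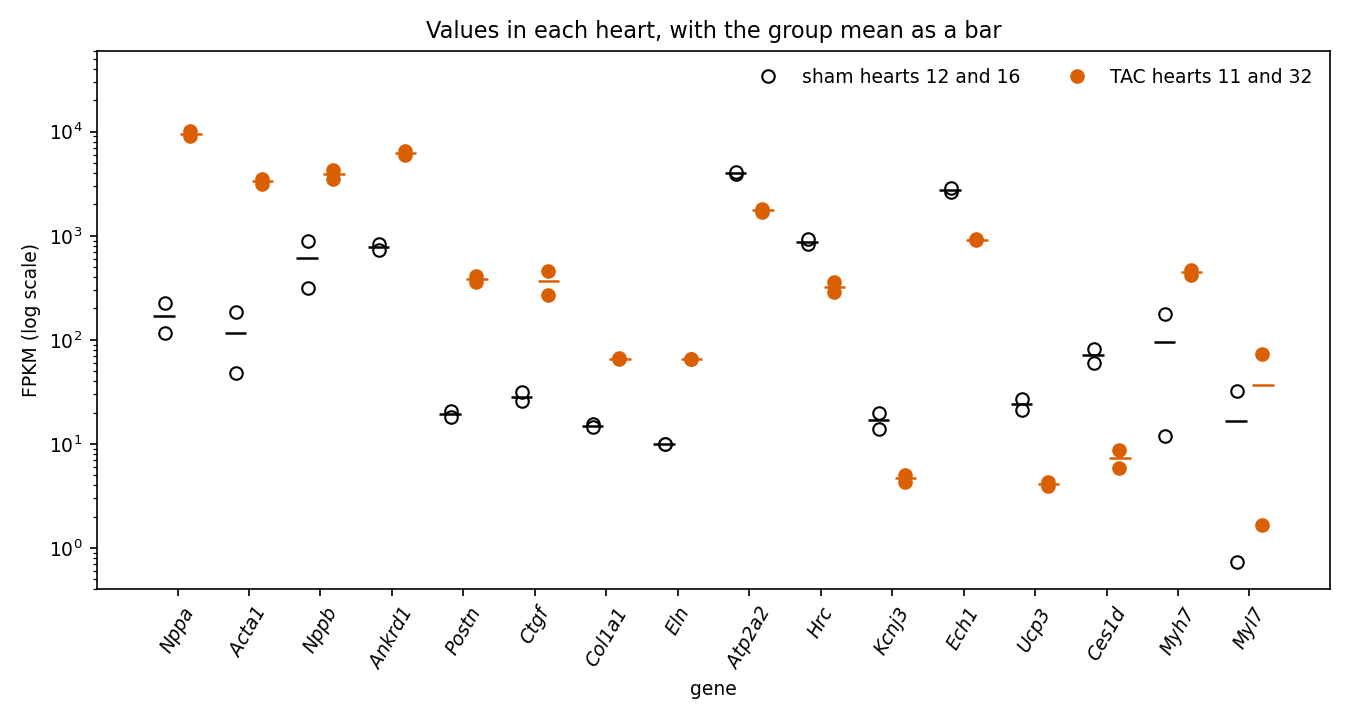
FPKM (y axis, log scale) of 16 genes in each of the 4 hearts, with open circles for sham hearts 12 and 16 and filled circles for TAC hearts 11 and 32, and bars at group means. The TAC hearts lie above the sham hearts for Nppa, Acta1, Nppb, Ankrd1, Postn, Ctgf, Col1a1 and Eln and below them for Atp2a2, Hrc, Kcnj3, Ech1, Ucp3 and Ces1d, whereas Myh7 and Myl7 overlap or vary between hearts of 1 group.

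The promoters of 3 of the strongly raised myocyte genes carry short motifs known from muscle gene control, and are shown because these genes moved together. Beside them are the promoter of Nppa, which holds no exact match to the motifs searched, and that of Ucp3, a gene that fell. Each is the 250 bases upstream of the start site in RefSeq's annotation of GRCm38.p6 (mm10), read 5′ to 3′ on the gene's strand. Capitals mark matches on either strand. The motifs searched were CATTCC, the core of the MCAT element bound by TEAD factors, the CArG box bound by serum response factor, AGATAA, which GATA factors bind, and AGGTCA, to which nuclear receptors bind. The regions are chr4:148000472-148000721 (plus strand), chr4:147985650-147985899 (plus), chr8:123894776-123895025 (minus), chr19:36119845-36120094 (minus) and chr7:100472741-100472990 (plus).
Nppa: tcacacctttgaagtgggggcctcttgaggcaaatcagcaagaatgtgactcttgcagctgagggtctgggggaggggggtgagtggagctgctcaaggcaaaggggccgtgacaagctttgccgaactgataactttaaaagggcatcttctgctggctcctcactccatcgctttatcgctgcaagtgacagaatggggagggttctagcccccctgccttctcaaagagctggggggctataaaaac
Nppb: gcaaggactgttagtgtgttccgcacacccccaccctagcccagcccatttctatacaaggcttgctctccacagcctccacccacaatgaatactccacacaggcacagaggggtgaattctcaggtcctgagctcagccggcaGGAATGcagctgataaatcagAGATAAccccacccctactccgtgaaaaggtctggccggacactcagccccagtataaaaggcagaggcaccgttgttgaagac
Acta1: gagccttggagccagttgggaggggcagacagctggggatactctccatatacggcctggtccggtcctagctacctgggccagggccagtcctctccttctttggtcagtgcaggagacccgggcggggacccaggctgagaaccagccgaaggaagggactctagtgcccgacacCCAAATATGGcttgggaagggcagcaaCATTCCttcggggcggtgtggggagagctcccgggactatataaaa
Ankrd1: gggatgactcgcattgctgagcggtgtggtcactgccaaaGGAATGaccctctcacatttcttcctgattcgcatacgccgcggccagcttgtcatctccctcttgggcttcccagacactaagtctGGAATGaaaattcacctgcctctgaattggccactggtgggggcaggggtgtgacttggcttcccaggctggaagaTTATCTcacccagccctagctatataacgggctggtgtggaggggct
Ucp3: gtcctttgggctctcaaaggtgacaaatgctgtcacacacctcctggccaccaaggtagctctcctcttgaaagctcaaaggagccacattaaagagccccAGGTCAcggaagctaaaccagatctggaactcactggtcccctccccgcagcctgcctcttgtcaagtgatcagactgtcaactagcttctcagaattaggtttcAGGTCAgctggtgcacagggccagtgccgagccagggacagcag
Counted back from the start site, CATTCC or its reverse complement GGAATG lies at -105 to -100 in Nppb, at -46 to -41 in Acta1, and at -210 to -205 and -123 to -118 in Ankrd1. The CArG box of Acta1 lies at -73 to -64, AGATAA or TTATCT at -84 to -79 in Nppb and -47 to -42 in Ankrd1, and AGGTCA at -149 to -144 and -44 to -39 in Ucp3. These matches are letters only, and binding was not measured. For GATA factors only AGATAA was searched, so TGATAA, which stands in the printed bases of Nppa and Nppb, is not marked. Of the tested genes 8944 had a promoter in the RefSeq table, and CATTCC stood in 10.9% of them, in 13.9% of the 974 called higher and 11.7% of the 1171 called lower. The CArG box stood in 1.22%, 1.54% and 0.512% of the same sets, AGATAA in 5.76%, 5.24% and 5.72%, and AGGTCA in 10.2%, 9.24% and 13.2%. Over all 27025 promoters of the table the shares were 12.6%, 1.40%, 10.3% and 13.8%.

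Proteins of the Z-disc, where neighbouring sarcomeres meet and stretch is sensed, were raised in part. Of 24 tested, 10 rose, 0 fell and 14 were not called, with a median of 0.30. Synpo2l, an actin-binding Z-disc protein, stood at 23.7 and 30.8 FPKM in the sham hearts and 111 and 207 FPKM in the TAC hearts (2.47 ± 0.26, limma adjusted p = 2.9e-05), and Ankrd23, a titin-binding relative of Ankrd1, at 262 and 357 FPKM in the sham hearts and 969 and 1168 FPKM in the TAC hearts (1.80 ± 0.20, limma adjusted p = 4.8e-05). The intermediate filament gene Des, which links Z-discs, rose from 975 and 1041 FPKM to 1789 and 2018 (0.91 ± 0.08, limma adjusted p = 1.0e-05). Pdlim1 rose by 0.70 and Pdlim5 by 0.67. The values of Ttn (titin), Actn2 and Tcap were -0.27, 0.20 and -0.59 and did not pass. The limma calls ended for Pdlim5 with only the compared groups fitted or without heart 32 (adjusted p from 0.071 to 0.091). Moves of over 1.5 times in the log2 difference were those of Pdlim5 (to 0.43 without heart 32).

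At the costamere, which ties the sarcomere to the matrix, 12 of 32 genes rose and 3 fell (median 0.28). Itgbl1, an integrin-like secreted protein, stood at 4.90 and 4.37 FPKM in the sham hearts and 34.1 and 32.2 FPKM in the TAC hearts, about the same in both hearts of each group (2.71 ± 0.20, limma adjusted p = 2.0e-06). Among the integrin receptors, the beta subunits Itgb1 and Itgb5 rose by 0.47 and 0.57 and the alpha subunits Itga9 and Itgav by 0.90 and 0.53. The sarcoglycan Sgca of the dystrophin complex fell by 0.58 ± 0.10, whereas Dmd itself stood at 0.27 ± 0.15 and was not called. Of 17 microtubule genes 9 rose and 2 fell (median 0.69). Tubulins that the adult heart makes little of, Tubb2b and Tubb2a, rose by 1.62 and 1.02 and Tuba1a by 0.94, and the kinesin Kif5b rose by 0.82. The abundant adult tubulin Tuba4a stood at 583 and 828 FPKM in the sham hearts and 299 and 466 FPKM in the TAC hearts and went the other way (-0.90). At the intercalated disc, 3 of 15 genes rose and 3 fell (11.0% and 12.8% over all tested genes). The actin anchor Nrap rose by 0.89 and the desmosomal cadherin Dsg2 went from 26.6 and 28.5 FPKM to 11.8 and 16.1 (-0.97 ± 0.16, limma adjusted p = 7.1e-04). Xirp1 rose by 0.90 and the desmosomal Dsc2 fell by 0.58. The gap junction gene Gja1 stood at -0.21, not called. Leaving out hearts 11 and 16 left 6 costamere genes higher and 1 lower, 5 microtubule genes higher and 0 lower and 3 intercalated disc genes higher and 1 lower. Calls were lost in limma for Dsc2, Itgav, Itgb5, Nrap, Tuba4a and Xirp1 with only the compared groups fitted, for Dsc2 and Tuba4a without heart 11 or without heart 16, for Dsc2, Itgav, Itgb5, Sgca, Tuba1a and Tuba4a without hearts 11 and 16 and for Xirp1 without heart 32 (adjusted p from 0.052 to 0.47). The log2 differences that moved by over 1.5 times were those of Dsc2 (to -0.36 without hearts 11 and 16) and Tuba4a (to -0.58 without heart 11 and -0.32 without hearts 11 and 16).

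Genes of adult contraction and calcium handling fell in part. Of 25 tested, 0 rose, 8 fell and 17 were not called (median -0.27). Atp2a2, the calcium pump SERCA2 of the sarcoplasmic reticulum, stood at 3899 and 4094 FPKM in the sham hearts and 1820.5 and 1694 FPKM in the TAC hearts (-1.19 ± 0.10, limma adjusted p = 4.9e-06). Hrc, a calcium-binding protein of the same store, went from 826 and 933 FPKM to 356 and 291 (-1.45 ± 0.15, limma adjusted p = 2.2e-05). Both TAC hearts were below both sham hearts by more than the hearts of a group differed. Pln (phospholamban), the inhibitor of the pump, stood at -0.83, the troponin gene Tnni3 at -0.92 and the adult myosin gene Myh6 at -0.77 ± 0.17, each called. Ryr2, the calcium release channel (-0.40), Slc8a1, the sodium-calcium exchanger (-0.16), and Casq2 (0.29) were not called. With hearts 11 and 16 removed, limma called 0 contraction genes higher and 4 lower. In limma, the calls did not hold for Myh6 with only the compared groups fitted, without heart 11, without heart 16 or without hearts 11 and 16 (adjusted p from 0.059 to 0.29). A shift of over 1.5 times in the log2 difference was seen for Myh6 (to -0.47 with quantile normalization and -0.47 without hearts 11 and 16) and Pln (to -0.53 with quantile normalization).

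Most potassium channel genes, which set repolarisation, fell, with 13 of 18 lower, 0 higher and a median of -0.74. Kcnj3, a channel subunit opened by G proteins, stood at 13.9 and 19.8 FPKM in the sham hearts and 5.01 and 4.31 FPKM in the TAC hearts (-1.73 ± 0.22, limma adjusted p = 1.1e-04), and its partner Kcnj5 at 30.2 and 33.0 FPKM in the sham hearts and 15.1 and 15.0 FPKM in the TAC hearts (-1.05 ± 0.12, limma adjusted p = 4.3e-05). Kcnj3 is also an atrial marker, and the TAC heart with high Myl7 was as low as the other. Kcnv2, a modifier subunit, went from 4.01 and 2.97 FPKM to 0.360 and 0.287 (-2.27 ± 0.26, limma adjusted p = 5.3e-05). The transient outward current genes Kcnd2 and Kcnip2 stood at -1.25 and -1.19, the rapid delayed rectifier Kcnh2 at -1.01 and the inward rectifier Kcnj2 at -0.83. Kcna5 (-0.17) was not called. Of 14 sodium and other muscle channel genes 7 fell and 1 rose (median -0.43). The sodium channel subunit gene Scn4b went from 19.3 and 17.6 FPKM to 6.75 and 2.89 (-1.93 ± 0.31, limma adjusted p = 6.8e-04). The skeletal sodium channel Scn4a and the pump regulator Fxyd1 fell by 1.59 and 0.44. The skeletal chloride channel Clcn1 fell to 0.175 and 0.266 FPKM from 2.19 and 2.17, and the calcium channel subunit Cacng6 to 0.407 and 0 from 2.2 and 1.99. Limma without hearts 11 and 16 called 0 potassium channel genes higher and 8 lower and 1 sodium and other channel gene higher and 4 lower. Limma no longer called Cacng6 without heart 32, Fxyd1, Kcnd2, Kcnip2, Kcnj2 and Scn4b with only the compared groups fitted and Fxyd1 without hearts 11 and 16 (adjusted p from 0.05 to 0.089). The log2 difference moved by over 1.5 times for Cacng6 (to -3.28 with a pseudocount of 0.1 FPKM), Fxyd1 (to -0.25 with quantile normalization) and Kcnip2 (to -0.74 without heart 32 and -1.78 without hearts 11 and 16).

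Many of the rises lay in the extracellular matrix. All 21 tested collagen genes rose, of 28 listed, with a median of 1.49. The other 7 were under the filter, which a gene could pass through its TAC hearts alone. Col1a1 and Col1a2, the chains of the fibrillar collagen I, stood at 15.4 and 14.4 FPKM in the sham hearts and 65.1 and 66.4 FPKM in the TAC hearts, and at 23.2 and 20.5 FPKM in the sham hearts and 108 and 102 FPKM in the TAC hearts (2.1 ± 0.30 and 2.24 ± 0.20, limma adjusted p = 2.9e-04 and 1.0e-05). Col3a1 rose by 2.01 and Col5a2, which sets fibril thickness with Col5a1, from 7.45 and 7.37 FPKM to 32.8 and 37.2 (2.16 ± 0.14, limma adjusted p = 8.5e-07). The short-chain collagen gene Col8a1 had the largest difference of the list at 3.30 ± 0.29, from 5.13 and 5.75 FPKM to 49.4 and 67.9. The basement membrane genes Col4a1 and Col4a2 stood at 1.26 and 1.16, and the microfibril genes Col6a1 and Col6a2 at 1.37 and 1.35. Col16a1, a fibril-associated collagen, rose by 2.22. Without hearts 11 and 16, 16 of the 21 were called, with a median of 1.40.

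Matricellular genes, whose products signal in the matrix rather than build it, and markers of activated fibroblasts rose in 22 of 29 cases and fell in 0 (median 1.89). Postn (periostin, chromosome 3, 54361109 to 54391037, plus strand), a marker of activated fibroblasts, stood at 20.6 and 18.3 FPKM in the sham hearts and 358 and 413 FPKM in the TAC hearts. Hearts of 1 group differed little beside the gap between the groups (4.27 ± 0.23, limma adjusted p = 2.8e-07). Cilp, an antagonist of TGF-beta found in cartilage and scarred heart, rose from 2.42 and 3.73 FPKM to 63.6 and 58.2 (4.12 ± 0.39, limma adjusted p = 1.2e-05), and Ctgf, a YAP and TGF-beta target, from 25.6 and 31.3 to 270.2 and 457 (3.61 ± 0.40, limma adjusted p = 4.3e-05). Cthrc1, a marker of collagen-making fibroblasts, was at 0.147 and 0.398 FPKM in sham and 12.4 and 6.50 in TAC hearts (3.64 ± 0.36). Meox1, a transcription factor of activated fibroblasts, rose by 2.65 ± 0.26, and Fn1 (fibronectin) and Sparc by 2.18 and 1.82. Among the thrombospondins, Thbs4 rose from 1.31 and 2.54 FPKM to 26.2 and 23.7 (3.44 ± 0.37, limma adjusted p = 3.9e-05) and Comp and Thbs3 by 2.64 and 1.42, while Thbs1 (2.45, limma adjusted p = 0.071) and Thbs2 (0.08) were not called.

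Of 12 tested small leucine-rich and other proteoglycans, which coat and space collagen fibrils, 10 rose and 0 fell (median 1.34). Bgn (biglycan) stood at 105 and 89.5 FPKM in the sham hearts and 410.3 and 446 FPKM in the TAC hearts (2.14 ± 0.14, limma adjusted p = 1.2e-06) and Aspn (asporin) at 16.2 and 12.5 FPKM in the sham hearts and 83.9 and 74.4 FPKM in the TAC hearts (2.43 ± 0.17, limma adjusted p = 1.3e-06). Lum (lumican) and Vcan (versican) rose by 1.52 and 1.59, and Dcn (decorin), the most abundant member at 510.0 and 440.3 FPKM in sham hearts, by 0.61 ± 0.11. Ogn (mimecan) had 0.04 and was not called, so members of this family shifted by different amounts. Among elastic fibre genes 14 of 18 rose and 2 fell (median 1.46). Eln (chromosome 5, 134702593 to 134747323, minus strand), which encodes elastin, had nearly equal values within each group, 9.91 and 9.98 FPKM in the sham hearts and 65.7 and 65.8 FPKM in the TAC hearts (2.67 ± 0.13, limma adjusted p = 1.0e-07). The microfibril genes Ltbp2, Mfap4 and Mfap5 rose by 3.63 ± 0.31, 3.13 ± 0.32 and 3.06 ± 0.22, and Fbn1 (fibrillin) by 1.79. Efemp1 and Emilin2 were the members that fell, at -1.15 and -0.81. The calls without hearts 11 and 16 were 6 proteoglycan genes higher and 0 lower and 12 elastic fibre genes higher and 0 lower. In limma, the calls did not hold for Dcn, Efemp1 and Emilin2 without hearts 11 and 16 and for Emilin2 with only the compared groups fitted (adjusted p from 0.051 to 0.14).

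Enzymes that crosslink, trim and degrade the matrix followed, with 18 of 28 higher and 0 lower (median 1.01). The lysyl oxidase gene Lox, whose product crosslinks collagen and elastin, stood at 1.16 and 1.64 FPKM in the sham hearts and 9.19 and 18.9 FPKM in the TAC hearts, with heart 32 above heart 11 (2.86 ± 0.33, limma adjusted p = 6.4e-05), and its relatives Loxl1, Loxl2 and Loxl3 rose by 1.73, 1.85 and 1.74. The collagenolytic protease Ctsk rose by 1.87 ± 0.18 and Mmp2 and Mmp14 by 1.71 and 1.55, together with the procollagen peptidase enhancer Pcolce at 1.16 and the inhibitor Timp1 at 2.18. Timp4, an inhibitor that the myocyte itself makes, stood at -0.79 ± 0.31 and was not called. Genes of collagen hydroxylation and folding, P4ha1, P4ha2, Plod1, Plod2 and Serpinh1, had 0.23, -0.06, 0.14, 0.22 and 0.07. TGF-beta is the main inducer of matrix genes, and 11 of 20 genes of its pathway rose and 1 fell (median 0.66). The ligand genes Tgfb3, Tgfb2 and Tgfb1 stood at 1.64 ± 0.12, 1.78 ± 0.24 and 0.99 ± 0.20 (limma adjusted p = 2.1e-06, 2.3e-04 and 0.0027), so Tgfb3 went from 5.84 and 5.43 FPKM to 19.7 and 17.6. Lrrc32, which holds latent TGF-beta at the cell surface, rose by 1.41. The receptor genes Tgfbr1 and Tgfbr2 rose by 0.41 and 0.66, and the co-receptor Tgfbr3 fell by 0.64 ± 0.15. Leaving out hearts 11 and 16 left 5 TGF-beta pathway genes higher and 0 lower. Limma no longer called Loxl3, Tgfb1, Tgfbr1, Tgfbr2 and Tgfbr3 without hearts 11 and 16, Tgfbr1, Tgfbr2 and Tgfbr3 with only the compared groups fitted, Tgfbr1 without heart 12, Tgfbr2 and Tgfbr3 without heart 16, Tgfbr2 without heart 32 and Tgfbr3 without heart 11 (adjusted p from 0.063 to 0.26). The log2 difference moved by over 1.5 times for Tgfbr3 (to -0.40 without heart 11 and -0.34 without hearts 11 and 16).

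**Figure D3:**
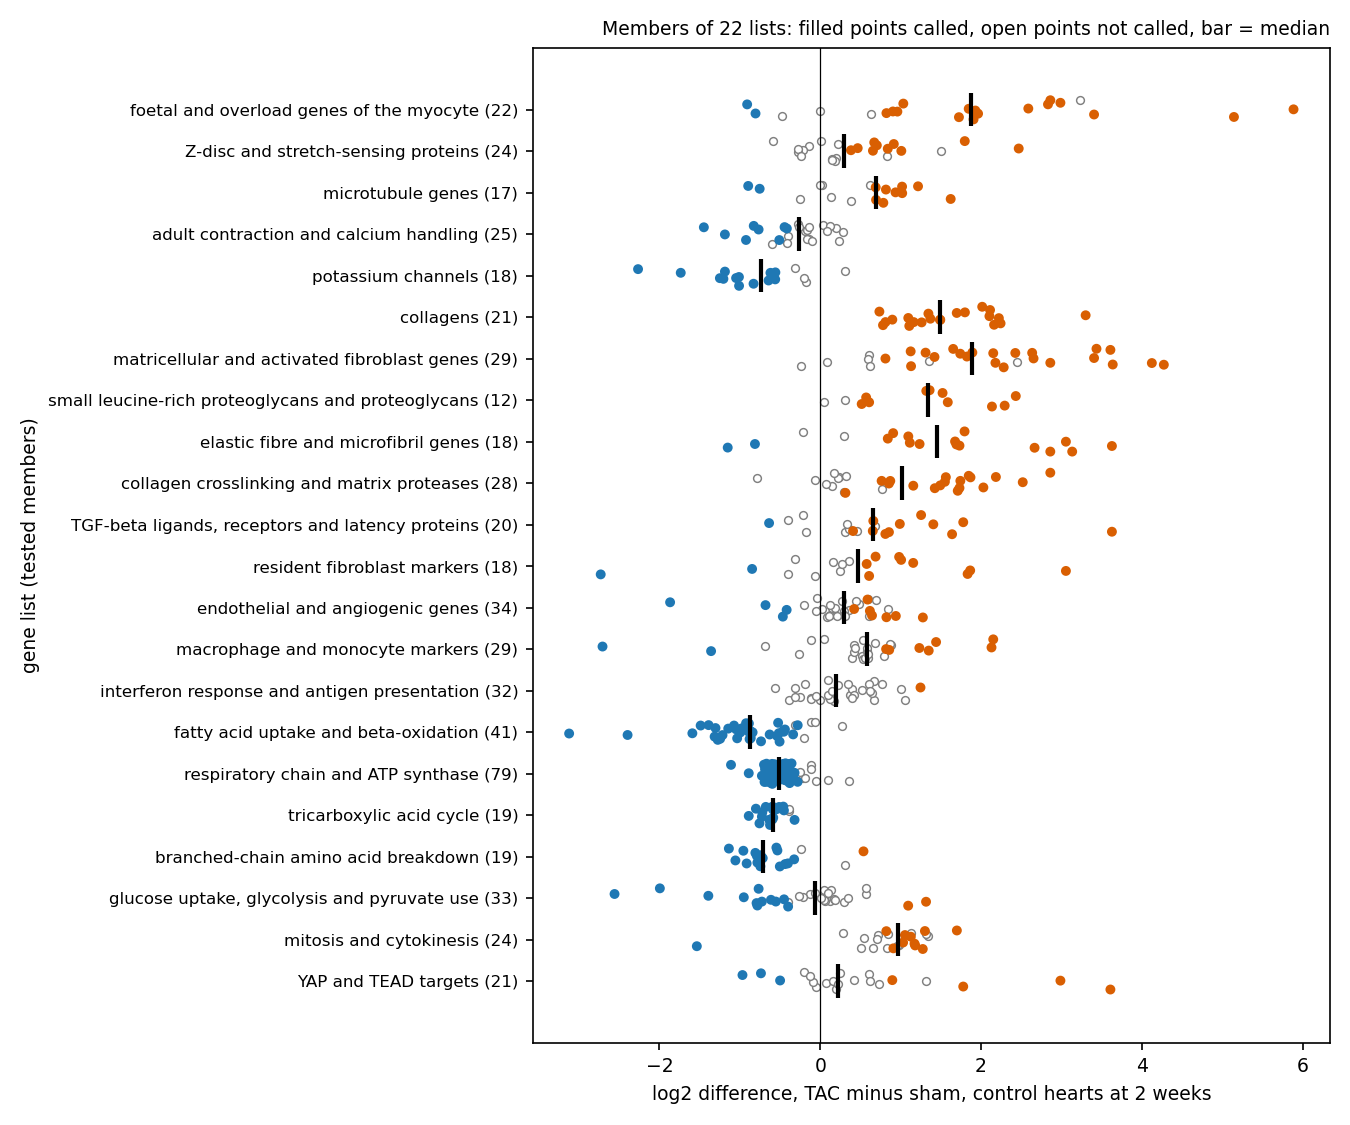
Log2 difference between TAC and sham control hearts at 2 weeks (x axis) of each tested member of 22 gene lists (rows), with filled points for called genes, open points for the others and a black bar at the list's median. Collagen, matricellular, proteoglycan and foetal lists lie mostly right of 0, and fatty acid, respiratory chain, tricarboxylic acid cycle and potassium channel lists left of it.

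Marker lists of the heart's other cells were called in part. Of 18 markers of resident fibroblasts 9 rose and 2 fell (median 0.47), and their summed level was 1896 and 1706 FPKM in sham and 2335 and 2333 FPKM in TAC hearts. The defining markers Pdgfra and Tcf21 rose by 0.69 ± 0.12 and 1.01 ± 0.27, while Gsn (-0.31) and Dpt (0.16) were not called. Pi16 and Serpinf1, both of adventitial fibroblasts, rose by 1.83 and 1.86, and Penk went from 7.70 and 7.17 FPKM to 0.486 and 0.948 (-2.73 ± 0.34, limma adjusted p = 1.2e-04). Their part in the rise of the matrix genes was not tested. Of 20 smooth muscle and pericyte genes 11 rose and 0 fell (median 0.67). The pericyte genes Cspg4 and Pdgfrb rose by 1.03 and 0.90 and the visceral actin Actg2 by 2.06, whereas Acta2, the myofibroblast actin, stood at 31.2 and 127 FPKM in the sham hearts and 55.1 and 87.7 FPKM in the TAC hearts, and the groups overlapped. With hearts 11 and 16 removed, limma called 5 resident fibroblast genes higher and 2 lower and 6 smooth muscle and pericyte genes higher and 0 lower. The limma calls ended for Pdgfra with only the compared groups fitted and for Tcf21 with control hearts only, without heart 16, without heart 32 or without hearts 11 and 16 (adjusted p from 0.053 to 0.21). Moves of over 1.5 times in the log2 difference were those of Actg2 (to 3.45 with a pseudocount of 0.1 FPKM).

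Among 34 endothelial and angiogenic genes 7 rose and 4 fell (median 0.30), and without hearts 11 and 16 the counts were 0 and 1, with 7 at an unadjusted p under 0.05. Over all tested genes 11.0% rose and 12.8% fell, the shares to set beside these counts and those of macrophage markers below. Pecam1 stood at 0.42 ± 0.12, Cdh5 at 0.48 and Kdr at 0.08, of which Cdh5 and Kdr were not called. Angpt1, a ligand of the Tie2 receptor that steadies vessels, fell from 17.5 and 21.9 FPKM to 5.17 and 4.85 (-1.87 ± 0.20, limma adjusted p = 4.1e-05), and the growth factor Vegfb fell by 0.42 ± 0.12. The fatty acid transporter Cd36 and the lymphatic regulator Prox1, both also made by myocytes, fell by 0.47 and 0.68. Of 29 macrophage markers 7 rose and 2 fell (median 0.58, and 0.27 with 1 and 1 called without hearts 11 and 16). Their summed level was 971 and 615 FPKM in sham and 1132 and 1180.0 FPKM in TAC hearts. Trem2, a lipid receptor of recruited macrophages, stood at 2.55 and 1.87 FPKM in the sham hearts and 9.70 and 13.1 FPKM in the TAC hearts (2.13 ± 0.30, limma adjusted p = 2.6e-04). Retnla, a marker of a resident subset, went from 15.5 and 7.48 FPKM to 2.1 and 0.651 (-2.71 ± 0.48, limma adjusted p = 0.0013). Cd84 and Cd9 rose by 0.82 and 0.86. The pan-macrophage genes Cd68, Csf1r and C1qa stood at 0.54, 0.42 and 0.55, not called. Calls were lost in limma for Cd36, Cd84, Cd9, Pecam1, Prox1, Retnla and Vegfb with only the compared groups fitted, for Cd36 with quantile normalization, for Cd36, Pecam1, Prox1 and Vegfb without heart 11, for Cd36, Cd84, Cd9, Pecam1, Prox1 and Vegfb without hearts 11 and 16, for Cd84, Cd9, Pecam1, Prox1 and Vegfb without heart 16, for Cd84 and Pecam1 without heart 32 and for Prox1 with control hearts only (adjusted p from 0.051 to 0.54). The log2 differences that moved by over 1.5 times were those of Cd36 (to -0.26 with quantile normalization), Cd9 (to 0.54 without hearts 11 and 16), Prox1 (to -0.39 without heart 11 and -0.28 without hearts 11 and 16) and Vegfb (to -0.27 without hearts 11 and 16).

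Almost no neutrophil, lymphocyte or interferon gene was called. Of 7 tested neutrophil genes and 5 tested lymphocyte genes 0 were called by limma, and 0 had an unadjusted p under 0.05. S100a8, a calprotectin subunit, stood at 117 and 13.1 FPKM in the sham hearts and 57.2 and 40.0 FPKM in the TAC hearts, so its level was highest in sham heart 12. Of 32 interferon and antigen presentation genes 1 was called, Ifit2 at 1.24 ± 0.42 (limma adjusted p = 0.047), and 1 had an unadjusted p under 0.05. Their summed level was 2068 and 1037 FPKM in sham and 2103 and 1366 FPKM in TAC hearts, and the groups overlapped. Of 6 mast cell genes 2 rose, both low, where 11.0% of all tested genes rose. Tpsb2 went from 0.798 and 0.865 FPKM to 2.66 and 2.16 and Cma1 from 0.324 and 0.585 FPKM to 2.56 and 1.61. Of 18 complement genes 3 rose and 1 fell (11.0% and 12.8% over all tested genes). The inhibitor Serping1 rose by 0.68, and the membrane inhibitor Cd59a fell by 0.47. Clu (chromosome 14, 65968483 to 65981547, plus strand), a secreted chaperone that also blocks complement, stood at 416 and 404 FPKM in the sham hearts and 965 and 984 FPKM in the TAC hearts, again close within each group (1.25 ± 0.12, limma adjusted p = 1.5e-05). Il6 lay under the filter, with 0 and 0 FPKM in the sham hearts and 1.33 and 1.88 FPKM in the TAC hearts, and was not tested. Limma without hearts 11 and 16 called 0 interferon genes higher and 0 lower (0 at an unadjusted p under 0.05), 0 mast cell genes higher and 0 lower (2 at an unadjusted p under 0.05) and 1 complement gene higher and 0 lower. In limma, the calls did not hold for Cd59a, Ifit2 and Serping1 with only the compared groups fitted, for Cd59a, Cma1, Ifit2 and Tpsb2 without heart 11, for Cd59a, Cma1, Ifit2, Serping1 and Tpsb2 without hearts 11 and 16, for Cma1 with control hearts only or without heart 12, for Ifit2 with no filter, with a prior without trend or with Myl7 as a covariate and for Ifit2 and Serping1 without heart 16 or without heart 32 (adjusted p from 0.05 to 0.49). A shift of over 1.5 times in the log2 difference was seen for Ifit2 (to 0.80 without heart 16 and 0.76 without hearts 11 and 16).

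Of 24 cytokine and chemokine genes 3 rose and 1 fell (median 0.15), where 11.0% of all tested genes rose and 12.8% fell. Tnfrsf12a, the receptor of the cytokine TWEAK, stood at 63.8 and 135 FPKM in the sham hearts and 273 and 357 FPKM in the TAC hearts (1.74 ± 0.28, limma adjusted p = 6.8e-04). Cx3cl1 and Cxcl16, chemokines anchored in the membrane, rose by 0.79 and 0.61, and Lifr, a receptor of the interleukin-6 family, fell by 0.60. Ccl2, Il1b and Tnf had 0.40, 0.20 and 0.49 and were not called. Of the small marker lists, 1 of 8 adipocyte genes rose (Scd1, by 1.02), 1 of 6 nerve and Schwann cell genes (Prnp, by 0.73) and 2 of 4 epicardial genes, while 0 fell in each. Aldh1a2, which makes retinoic acid, and Wt1, both of the epicardium, went from 3.83 and 3.09 FPKM to 9.04 and 16.7 and from 1.27 and 1.10 FPKM to 2.43 and 2.42. Of 4 red blood cell genes 0 were called by limma and 0 had an unadjusted p under 0.05, and their summed level was 1566 and 767 FPKM in sham and 1242 and 2153 FPKM in TAC hearts. Of 11 atrial markers 2 rose and 4 fell, with Pam, a peptide-processing enzyme, from 183 and 197 FPKM to 396 and 351 and Stard10 from 18.2 and 18.7 to 6.97 and 6.79. Among ribosome biogenesis genes 3 of 21 rose and 1 fell (11.0% and 12.8% over all tested genes). Rrp12, Eif4ebp1 and Eef1a1 stood at 0.82, 0.73 and 0.64 and Polr1a at -0.55. The calls without hearts 11 and 16 were 3 cytokine genes higher and 0 lower, 0 adipocyte genes higher and 0 lower (1 at an unadjusted p under 0.05) and 1 epicardial gene higher and 0 lower. Leaving out hearts 11 and 16 left 2 ribosome biogenesis genes higher and 0 lower. The limma calls ended for Aldh1a2, Cx3cl1, Cxcl16, Lifr, Polr1a and Wt1 without heart 32, for Cx3cl1, Cxcl16, Eef1a1, Eif4ebp1, Lifr, Polr1a, Rrp12 and Tnfrsf12a with only the compared groups fitted, for Cx3cl1, Cxcl16, Lifr and Wt1 without heart 11, for Cx3cl1, Cxcl16, Eef1a1, Polr1a and Wt1 without heart 16, for Cx3cl1, Cxcl16, Eef1a1, Lifr, Polr1a, Scd1 and Wt1 without hearts 11 and 16, for Cxcl16 with no filter, with a prior without trend or with Myl7 as a covariate and for Lifr and Wt1 without heart 12 (adjusted p from 0.052 to 0.65). Moves of over 1.5 times in the log2 difference were those of Cxcl16 (to 0.25 without hearts 11 and 16), Eif4ebp1 (to 0.46 without heart 32) and Rrp12 (to 0.53 without heart 12).

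Secreted factors moved both ways, with 12 of 28 tested higher and 3 lower (median 0.52). Gdf15, a stress hormone, stood at 0.481 and 0.724 FPKM in the sham hearts and 16.0 and 4.34 FPKM in the TAC hearts, with heart 11 well above heart 32 (3.03 ± 0.64, limma adjusted p = 0.0041). Fstl1, a follistatin-like glycoprotein, rose from 37.9 and 35.9 FPKM to 177 and 199 (2.33 ± 0.17, limma adjusted p = 1.9e-06), Igf1 from 3.17 and 3.13 to 8.31 and 10.2 (1.41 ± 0.15, limma adjusted p = 3.2e-05), Igfbp7 by 1.69 and Hbegf, a ligand of the EGF receptor, by 1.71. Fgf16 and Fgf1 fell by 1.16 and 0.66. Among renin-angiotensin, endothelin and natriuretic peptide genes 3 of 21 rose and 2 fell (11.0% and 12.8% over all tested genes). Ace, which makes angiotensin II, went from 10.9 and 10.4 FPKM to 32.3 and 41.2 (1.73 ± 0.18, limma adjusted p = 3.1e-05), while the natriuretic peptide receptors Npr1, Npr2 and Npr3 had 0.51, -0.02 and -0.05, none called. Mme (neprilysin), which degrades natriuretic peptides, went down to 0.783 and 0.849 FPKM from 2.68 and 3.40 (-1.42 ± 0.22, limma adjusted p = 5.1e-04), and Nr3c2, the mineralocorticoid receptor, stood at -1.23 ± 0.22, while the endothelin receptor Ednrb rose by 0.64. Of 16 adrenergic genes 4 fell and 1 rose (12.8% and 11.0% over all tested genes). The alpha-1 receptor gene Adra1b went from 13.6 and 19.8 FPKM to 5.31 and 6.30 (-1.43 ± 0.17, limma adjusted p = 7.7e-05) and Adra1a from 3.61 and 5.20 FPKM to 1.43 and 1.78 (-1.21 ± 0.22). Pde4d, which breaks down cyclic AMP, fell by 0.78 and the receptor arrestin Arrb1 rose by 0.43, and Adrb1, the main beta receptor, stood at -0.50 ± 0.25, not called (limma adjusted p = 0.17). With hearts 11 and 16 removed, limma called 7 secreted factor genes higher and 2 lower, 1 renin-angiotensin and peptide gene higher and 1 lower and 0 adrenergic genes higher and 1 lower. Limma no longer called Arrb1, Ednrb, Gdf15, Hbegf and Nr3c2 with only the compared groups fitted, Ednrb and Gdf15 without heart 11, Adra1a, Arrb1, Ednrb, Gdf15, Nr3c2 and Pde4d without hearts 11 and 16, Arrb1 and Ednrb with control hearts only, without heart 16 or without heart 32 and Ednrb with no filter, with quantile normalization or with Myl7 as a covariate (adjusted p from 0.051 to 0.39). The log2 difference moved by over 1.5 times for Arrb1 (to 0.28 without heart 16).

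Most genes of fatty acid use fell, and their list had the lowest median of the fuel and energy lists. Of 41 genes of fatty acid uptake and beta-oxidation 36 fell and 0 rose, with a median of -0.88 against 0.00 over all genes. The uptake transporter Slc27a1 fell by 1.31 ± 0.11 and the acyl-CoA synthetase Acsl1 stood at -0.89. The carnitine shuttle gene Cpt1b, which brings fatty acids into mitochondria, stood at -0.54 and Cpt2 at -1.24. Of the oxidation cycle, the dehydrogenases Acadvl and Acadm stood at -0.86 and -0.88, the trifunctional protein gene Hadha at -1.14 and the thiolase Acaa2 at -1.49 ± 0.16. Ech1, an auxiliary enzyme for unsaturated chains, went from 2605 and 2896 FPKM to 923 and 901 (-1.59 ± 0.11, limma adjusted p = 1.3e-06), and the electron carrier Etfb from 1642 and 1730.2 to 723 and 728 (-1.22 ± 0.11, limma adjusted p = 1.1e-05). The mitochondrial carrier gene Ucp3, whose promoter is printed above, stood at 26.7 and 21.4 FPKM in the sham hearts and 3.97 and 4.30 FPKM in the TAC hearts (-2.40 ± 0.30, limma adjusted p = 1.3e-04). The thioesterase Acot1, at 11.7 and 17.0 FPKM in the sham hearts and 0.780 and 1.69 FPKM in the TAC hearts, had the largest fall of the list (-3.12 ± 0.39, limma adjusted p = 1.1e-04), and the sources used here do not say how reads were divided between it and its near copy Acot2 (-1.27). Eci1, which handles double bonds, and Crat, an acetyl group carrier enzyme, stood at -1.05 and -1.03. Fabp3, the abundant fatty acid carrier protein, had -0.21 and was not called. Without hearts 11 and 16, 22 of the 41 fell. The limma calls ended for Acsl1 and Cpt1b without hearts 11 and 16 and for Cpt1b with only the compared groups fitted, with control hearts only, without heart 11 or without heart 16 (adjusted p from 0.054 to 0.44). Moves of over 1.5 times in the log2 difference were those of Cpt1b (to -0.33 without heart 16 and -0.24 without hearts 11 and 16).

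Regulators of these genes also fell. Of 27 genes of PPAR and PGC1 regulation and lipid storage 16 fell and 0 rose (median -0.47). Ppara, the receptor that drives fatty acid genes, stood at 13.8 and 19.2 FPKM in the sham hearts and 8.15 and 8.39 FPKM in the TAC hearts (-0.94 ± 0.17, limma adjusted p = 0.0014), Ppargc1a, its co-activator, at 25.1 and 26.9 FPKM in the sham hearts and 16.2 and 15.6 FPKM in the TAC hearts (-0.69 ± 0.13, limma adjusted p = 0.0022), and their partner Rxrg at -1.17. Ppard and Pparg had -0.02 and -0.05 and were not called. The lipid droplet genes Plin5, Fitm1 and Fitm2 stood at -1.07, -1.13 and -1.13. Ces1d, a carboxylesterase of a family with close copies, went from 60.5 and 80.8 FPKM to 8.71 and 5.84, with both TAC hearts far below both sham hearts (-3.20 ± 0.28, limma adjusted p = 8.3e-06). Limma without hearts 11 and 16 called 0 PPAR and lipid genes higher and 6 lower. Calls were lost in limma for Ppara with only the compared groups fitted and for Ppara and Ppargc1a without hearts 11 and 16 (adjusted p from 0.051 to 0.077).

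Most genes of the respiratory chain fell, by smaller amounts. Of 79 tested subunit genes 70 fell and 0 rose, with a median of -0.51. By complex, 34 of 37 genes of complex I fell (median -0.49), all 4 of complex II (-0.70), all 9 of complex III (-0.48), 9 of 14 of complex IV (-0.49) and 13 of 14 of the ATP synthase (-0.59). Cox7a1, the muscle form of a complex IV subunit, stood apart with 7000.5 and 6064 FPKM in the sham hearts and 3338 and 2731 FPKM in the TAC hearts (-1.11 ± 0.14, limma adjusted p = 1.3e-04). The forms of other tissues, Cox6a1, Cox8a and Cox4i2, had -0.06, -0.11 and 0.36 and were not called, while the muscle forms Cox6a2 and Cox8b fell by 0.61 and 0.41. Sdha, Sdhb and Sdhc of complex II stood at -0.89 ± 0.12, -0.68 ± 0.11 and -0.73 ± 0.12, Ndufs7 of complex I at -0.60 and Atp5e of the ATP synthase at -0.70 ± 0.09. Without hearts 11 and 16 the list's median was -0.51 and 17 genes were called. Of 19 tricarboxylic acid cycle genes 17 fell and 0 rose (median -0.59). This count includes Sdha, Sdhb, Sdhc and Sdhd, which are also counted in complex II above. For the breakdown of branched-chain amino acids 16 of 19 fell and 1 rose (median -0.71). Idh3a stood at -0.80 and Suclg1 at -0.76. The branched-chain dehydrogenase subunits Bckdha and Bckdhb stood at -0.92 ± 0.10 and -1.06 ± 0.11, Mccc2 of leucine breakdown at -0.96, and Ppm1k, the phosphatase that switches the complex on, at -1.14 ± 0.16. Slc7a5, a plasma membrane importer of these amino acids, rose by 0.54 ± 0.18. The calls without hearts 11 and 16 were 0 tricarboxylic acid cycle genes higher and 4 lower and 0 branched-chain genes higher and 8 lower. In limma, the calls did not hold for Cox6a2, Cox8b, Idh3a, Ndufs7, Sdhc and Slc7a5 without hearts 11 and 16, for Cox8b and Slc7a5 with no filter, with quantile normalization, with only the compared groups fitted, with control hearts only, without heart 11, without heart 12, without heart 16 or without heart 32 and for Slc7a5 with Myl7 as a covariate (adjusted p from 0.051 to 0.28). A shift of over 1.5 times in the log2 difference was seen for Cox6a2 (to -0.33 with quantile normalization), Cox8b (to -0.14 with quantile normalization), Ndufs7 (to -0.36 with quantile normalization) and Sdhb (to -0.45 with quantile normalization).

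Glucose genes did not move as one, with 12 of 33 lower, 2 higher and a median of -0.07. Pfkfb1, an enzyme that sets fructose 2,6-bisphosphate and so glycolytic rate, went from 17.3 and 14.8 FPKM to 2.63 and 2.01 (-2.56 ± 0.16, limma adjusted p = 6.6e-07). The insulin-responsive transporter Slc2a4 went from 200.1 and 186 to 117 and 106 (-0.79 ± 0.09, limma adjusted p = 7.2e-05), whereas Slc2a1, the foetal and insulin-independent transporter, stood at 0.30 ± 0.15, not called. The phosphofructokinase isoforms moved apart, since the muscle form Pfkm went from 503 and 565 to 348 and 298 FPKM and the platelet form Pfkp from 14.8 and 22.1 to 44.5 and 46.9 (-0.73 ± 0.12 and 1.32 ± 0.16, limma adjusted p = 0.001 and 1.1e-04). Creatine kinases did the same, with the adult forms Ckm and Ckmt2 at -0.53 and -0.43 and the foetal brain-type Ckb at 0.80 ± 0.12, all called. Of 16 genes of energy shuttles 3 rose and 5 fell (11.0% and 12.8% over all tested genes). Ldhd, Vdac1 and Ak1 were among those that fell, at -1.14, -0.59 and -0.57. The glycogen phosphorylase gene Pygm stood at -0.77. Ldhb stood at -0.95 ± 0.14 and Ldha, called in neither direction, at 0.18 ± 0.11. Leaving out hearts 11 and 16 left 1 glucose gene higher and 8 lower and 1 energy shuttle gene higher and 2 lower. Limma no longer called Ak1 and Ckmt2 with only the compared groups fitted, Ckb, Ckm, Ckmt2 and Vdac1 without hearts 11 and 16, Ckm and Ckmt2 without heart 16 and Ckmt2 with no filter, with control hearts only, without heart 11, without heart 12 or without heart 32 (adjusted p from 0.052 to 0.14). The log2 difference moved by over 1.5 times for Ckm (to -0.34 with quantile normalization), Ckmt2 (to -0.22 with quantile normalization) and Vdac1 (to -0.37 with quantile normalization).

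Stress and turnover lists were mixed, where 11.0% of all tested genes rose and 12.8% fell. Of 23 endoplasmic reticulum genes 9 fell and 2 rose (median -0.35). The degradation factor Herpud1 went from 119 and 96.8 FPKM to 49.0 and 38.1 (-1.30 ± 0.16, limma adjusted p = 9.9e-05) and the chaperone Hspa5 from 491 and 462 to 243 and 271 (-0.89 ± 0.18). The folding genes Canx and Dnajb9 fell by 0.60 and 0.60, while the stress transcription factor Atf4 went up by 0.59 ± 0.11. Of 20 heat shock genes 4 rose and 2 fell. Hspb7, a small heat shock protein of muscle, rose by 0.77 ± 0.16 and the co-chaperone Dnajb4 by 0.43, while the mitochondrial chaperone pair Hspd1 and Hspe1 fell by 0.82 ± 0.12 and 0.51 ± 0.14. Of 24 atrophy and autophagy genes 8 fell and 1 rose. The ubiquitin ligase genes Fbxo32 (atrogin-1) and Fbxo31 stood at -0.75 ± 0.15 and -0.91 ± 0.13 and Klhl30 at -0.71, and the Kelch gene Klhl38 went from 20.5 and 17.2 FPKM to 4.84 and 4.81 (-1.86 ± 0.19, limma adjusted p = 3.0e-05). Among p53 and death genes 6 of 21 rose and 4 fell, with Phlda3 and the survival gene Bcl2 at 1.55 ± 0.19 and 1.25 ± 0.19 and the death gene Bcl2l11 at -1.35 ± 0.21, while Cdkn1a had 0.29 and was not called. For oxidative stress 5 of 27 rose and 8 fell. Nox4, an oxidase that makes hydrogen peroxide, rose from 0.256 and 0.347 FPKM to 1.56 and 2.12 and Hmox1 by 1.07 ± 0.20. The scavenger Sod2 fell by 0.69 ± 0.10, as did the glutathione transferase Gstm1 by 0.95 and the oxidases Maob and Aox1 by 1.02 and 1.22. With hearts 11 and 16 removed, limma called 1 endoplasmic reticulum gene higher and 3 lower, 3 heat shock genes higher and 1 lower and 0 atrophy and autophagy genes higher and 5 lower. Limma without hearts 11 and 16 called 3 p53 and death genes higher and 3 lower and 3 oxidative stress genes higher and 5 lower. The limma calls ended for Atf4, Dnajb4, Fbxo32, Hspb7, Hspe1 and Klhl30 with only the compared groups fitted, for Dnajb4 without heart 12, for Dnajb4, Fbxo32, Hspb7 and Hspe1 without heart 32, for Dnajb9, Hspa5 and Hspe1 without hearts 11 and 16 and for Hspe1 with control hearts only or without heart 16 (adjusted p from 0.05 to 0.18). Moves of over 1.5 times in the log2 difference were those of Hspb7 (to 0.47 without heart 32 and 1.18 without hearts 11 and 16).

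Cell division genes were low in every heart. Of 24 tested genes of mitosis 10 rose and 1 fell (median 0.97), and of 21 of DNA replication 3 rose and 0 fell (median 0.21). Over all tested genes 11.0% rose and 12.8% fell. Mki67 stood at 1.15 and 1.00 FPKM in the sham hearts and 3.54 and 2.15 FPKM in the TAC hearts and Cdk1 at 1.11 and 0.574 FPKM in the sham hearts and 3.70 and 1.91 FPKM in the TAC hearts, with heart 11 the higher of the TAC hearts in both (1.05 ± 0.33 and 1.28 ± 0.34, limma adjusted p = 0.031 and 0.016). Summed over the mitosis list the hearts had 46.9 and 46.0 FPKM after sham and 99.3 and 64.4 after TAC. Ccnb2, a mitotic cyclin, had the largest difference at 1.70, and of replication Ccne1, Tyms and Mcm3 rose by 0.97, 0.81 and 0.74. Without hearts 11 and 16, 0 genes of mitosis and 0 of replication were called higher by limma, with 1 and 0 in either direction at an unadjusted p under 0.05. Cenpf, the member that fell, stood at 3.74 and 3.51 FPKM in the sham hearts and 1.07 and 0.790 FPKM in the TAC hearts (-1.53 ± 0.27, limma adjusted p = 0.0013). Calls were lost in limma for Ccnb2, Ccne1, Cdk1, Mcm3, Mki67 and Tyms without heart 11, without heart 16 or without hearts 11 and 16, for Ccnb2, Mcm3, Mki67 and Tyms without heart 12, for Ccne1, Cdk1, Mcm3, Mki67 and Tyms with only the compared groups fitted and for Mcm3 with no filter or with quantile normalization (adjusted p from 0.051 to 0.46). The log2 differences that moved by over 1.5 times were those of Ccne1 (to 0.44 without hearts 11 and 16), Cdk1 (to 0.58 without hearts 11 and 16), Mcm3 (to 0.49 without hearts 11 and 16) and Mki67 (to 0.68 without hearts 11 and 16).

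Immediate early genes, which respond to stimuli within the hour and to handling of the tissue, had a median of 0.86. Of 23 tested, 3 were called, where 23.8% of all tested genes were. Egr2 stood at 0.255 and 0.368 FPKM in the sham hearts and 6.19 and 5.38 FPKM in the TAC hearts (2.95 ± 0.93, limma adjusted p = 0.034), and Ier3 and Maff rose by 0.99 and 1.14, while Fos (1.05 ± 0.65) and Egr1 (1.84 ± 0.93) were not called. Of 18 clock genes 1 rose and 3 fell (11.0% and 12.8% over all tested genes). The repressors Nr1d1 and Nr1d2 stood at -0.78 and -0.97, the factor Hlf at -1.02 and Bhlhe41 at 0.89. The labels give no hour of collection. In the thyroid hormone list 2 of 11 rose and 5 fell. Dio2, the deiodinase that makes active hormone, went from 0.401 and 0.407 FPKM to 5.07 and 7.24 (2.86 ± 0.23, limma adjusted p = 3.3e-06), while the receptor gene Thrb and the target Klf9 fell by 1.03 and 0.89, and Slc16a10, a transporter of the hormone, by 0.95. The calls without hearts 11 and 16 were 1 thyroid hormone gene higher and 3 lower. In limma, the calls did not hold for Egr2 and Nr1d1 with no filter, for Egr2, Maff and Nr1d1 without heart 11, for Egr2, Hlf, Maff and Nr1d1 without heart 12, for Bhlhe41, Egr2, Maff and Nr1d1 without heart 16, for Bhlhe41, Egr2 and Maff without heart 32, for Bhlhe41, Egr2, Klf9, Maff and Nr1d1 without hearts 11 and 16, for Bhlhe41, Hlf and Nr1d1 with only the compared groups fitted and for Nr1d1 with control hearts only (adjusted p from 0.051 to 0.33). A shift of over 1.5 times in the log2 difference was seen for Bhlhe41 (to 0.59 without heart 16) and Nr1d1 (to -0.51 without heart 11).

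YAP targets and the Hippo pathway bear on the study's subject. Of 21 tested YAP and TEAD targets 4 rose, 3 fell and 14 were not called (median 0.23), where 11.0% of all tested genes rose and 12.8% fell. Those that rose were Ctgf and Ankrd1, given above, with Tgfb2 and Axl, the last at 0.90 ± 0.17. Cyr61, often measured with Ctgf, stood at 0.61 ± 0.46 (limma adjusted p = 0.37) and was not called, and Amotl2, F3 and Gadd45a fell by 0.50, 0.74 and 0.97. Among 20 pathway genes 5 rose and 0 fell. The co-activator Wwtr1 (TAZ) rose by 0.57 ± 0.11 and the TEAD partner Vgll3 from 0.765 and 0.934 FPKM to 3.41 and 4.26 (1.68 ± 0.22, limma adjusted p = 1.5e-04), and Amot and the cadherin Dchs1 rose by 1.06 and 1.08, whereas Yap1 itself stood at -0.06 ± 0.10, Tead1 at 0.24 ± 0.15 and the kinase genes Lats1 and Lats2 at 0.29 and 0.07, none called. Wnt5a stood at 2.55 and 3.06 FPKM in the sham hearts and 1.76 and 1.58 FPKM in the TAC hearts. Both TAC hearts lay below both sham hearts, and the difference of -0.60 ± 0.21 missed the threshold (limma adjusted p = 0.051). Of 4 tested Wnt ligand genes 1 rose and 0 fell. Wnt5b, a close relative of Wnt5a, rose from 1.10 and 0.880 FPKM to 3.35 and 2.93 (1.29 ± 0.25, limma adjusted p = 0.0023). Of 22 Wnt receptors, antagonists and targets 8 rose and 0 fell. The secreted antagonists led, with Frzb at 1.55 and 2.29 FPKM in the sham hearts and 11.4 and 14.7 FPKM in the TAC hearts (2.49 ± 0.23, limma adjusted p = 1.2e-05) and Sfrp2 and Sfrp1 higher by 2.43 ± 0.36 and 1.48 ± 0.21. The intracellular inhibitor Nkd2 rose by 1.81, and of the receptors Fzd1 and Fzd2 rose by 0.73 and 0.88. Axin2, a general target of beta-catenin signalling, had -0.03 ± 0.22 and was not called. Leaving out hearts 11 and 16 left 3 Hippo pathway genes higher and 0 lower, 0 Wnt ligand genes higher and 0 lower (1 at an unadjusted p under 0.05) and 5 Wnt receptor and antagonist genes higher and 1 lower. Limma no longer called Amotl2 with no filter, with control hearts only, with a prior without trend, without heart 11 or with Myl7 as a covariate, Amotl2, F3, Fzd1 and Gadd45a with only the compared groups fitted, Amotl2, Fzd1 and Gadd45a without heart 12, Amotl2 and Fzd1 without heart 16, Amotl2, Axl, Dchs1, Fzd1, Fzd2, Wnt5b and Wwtr1 without hearts 11 and 16 and Fzd1, Fzd2 and Gadd45a without heart 32 (adjusted p from 0.052 to 0.47). The log2 difference moved by over 1.5 times for Amotl2 (to -0.27 without heart 11 and -0.28 without hearts 11 and 16).

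Some of the most changed genes lay outside the lists. Serpinb1c, of a protease inhibitor family with close copies, went from 0.101 and 0.456 FPKM to 8.07 and 5.65 (3.26 ± 0.31, limma adjusted p = 1.5e-05). On the falling side, Lgals4 (galectin-4) stood at 45.2 and 54.0 FPKM in the sham hearts and 9.42 and 9.62 FPKM in the TAC hearts, the phospholipase Pla2g5 at 30.0 and 27.7 FPKM in the sham hearts and 7.28 and 7.61 FPKM in the TAC hearts, and Ano10 at 43.7 and 36.8 FPKM in the sham hearts and 11.6 and 8.28 FPKM in the TAC hearts. Klhl33, Mrgprh and the glycogen phosphorylase kinase subunit Phkg1 stood at -2.28, -1.93 and -1.99, and Sbk2, a kinase gene of atrial muscle, at -1.94 ± 0.35 with 6.94 and 6.81 FPKM in the sham hearts and 1.63 and 1.23 FPKM in the TAC hearts. Lypd2 was at 3.46 and 10.3 FPKM in sham hearts and listed at 0 in both TAC hearts. The small nucleolar RNAs Snora43 and Snord89 were also called, with Snora43 listed at 0 in both sham hearts and at 68.1 and 73.8 FPKM in TAC hearts, and Snord89 at 323 and 291 FPKM in sham hearts and listed at 0 in both TAC hearts, but values of so short a gene inside a host transcript are uncertain. The limma calls ended for Snora43 with a pseudocount of 0.1 FPKM, with no filter, with a prior without trend, without heart 11, without heart 12, without heart 16, without heart 32 or with Myl7 as a covariate and for Lypd2, Phkg1, Snora43 and Snord89 without hearts 11 and 16 (adjusted p from 0.054 to 0.2). Moves of over 1.5 times in the log2 difference were those of Lypd2 (to -5.93 with a pseudocount of 0.1 FPKM).

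**Figure D4:**
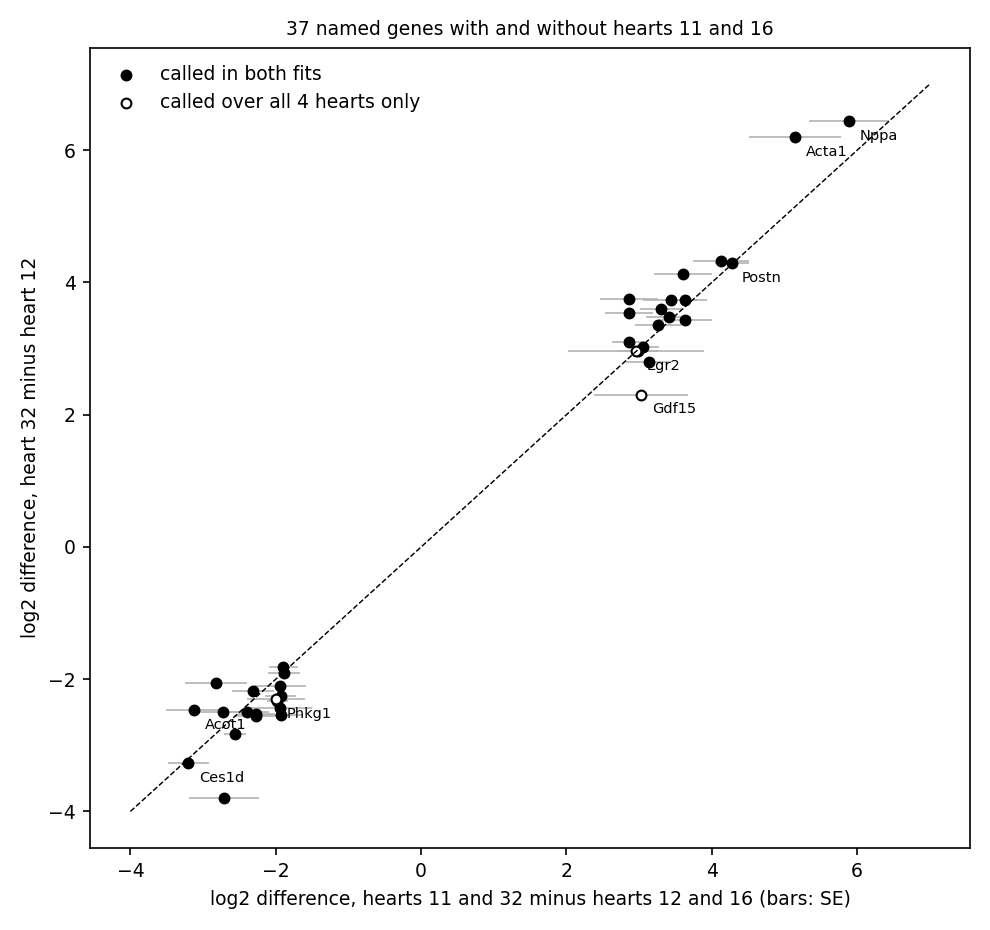
Log2 difference of the 37 named rises and falls with no group listed at 0, over all 4 hearts (x axis), against heart 32 minus heart 12 alone (y axis), the pair left when hearts with Myl7 of 10 FPKM or more are removed. Filled points were called in both fits and open points only over all 4 hearts, error bars are the SE of the 4-heart difference, and the dashed line marks equal values. Of the 37 genes 34 were called in both fits, all lie on the same side of 0 in both, and Egr2, Gdf15 and Phkg1 are the open points.

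The response at 2 weeks was set beside that of control hearts at 4 weeks, which uses other hearts. Of the 1386 genes higher at 2 weeks, 1255 were also higher in the 4-week TAC hearts in sign, and of the 1612 lower genes 1445 were lower, where 70.1% of all tested genes had the same sign. Their medians were 0.79 at 2 weeks and 0.41 at 4 weeks for the higher genes, and -0.60 and -0.30 for the lower ones, and the genes had been chosen on their 2-week values. The difference between the responses passed limma for 1 gene (0.00794%), and at an unadjusted p under 0.05 for 1718 (13.6%). That gene was Eln, at 9.91 and 9.98 FPKM in sham and 65.7 and 65.8 FPKM in TAC hearts at 2 weeks, against 12.8 and 11.9 FPKM in sham and 25.2 and 27.2 FPKM in TAC hearts at 4 weeks. Its response was 2.67 ± 0.13 at 2 weeks and 1.06 ± 0.13 at 4 weeks, a difference of 1.61 ± 0.18 (limma adjusted p = 0.0055). Without sham heart 12, TAC heart 32 or the high-Myl7 hearts it was 1.60, 1.61 and 1.62 and missed the threshold (limma adjusted p = 0.0504, 0.0513 and 0.0982). The metabolic lists had smaller medians at 4 weeks, with -0.51 and -0.15 for the respiratory chain and -0.88 and -0.34 for fatty acids. Of these members 48 of 79 and 26 of 41 differed between the times at an unadjusted p under 0.05, and 0 after adjustment in limma. Collagens stood at 1.49 and 0.69, with 15 of 21 under 0.05 unadjusted. Foetal genes stood at 1.88 and 1.54 (5 of 22). Ucp3 was -2.40 at 2 weeks and -0.43 ± 0.30 at 4 weeks (limma adjusted p of the difference 0.13), and Ankrd1 had 2.99 and 3.00.

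The response was last set beside that of CKO hearts at the same time. Of the 1386 higher genes 1306 and of the 1612 lower genes 1548 had the same sign there, where 76.5% of all genes did. Medians were 0.79 in control and 0.55 in CKO hearts for the higher genes, and -0.60 and -0.41 for the lower ones. These genes had been chosen on their control values. The difference passed limma for 2 genes (0.0159%), and at an unadjusted p under 0.05 for 997 (7.92%). Clu stood at 416 and 404 FPKM after sham and 965 and 984 after TAC in control hearts, and at 371 and 383 FPKM after sham and 323 and 270.3 after TAC in CKO hearts. It rose in control hearts by 1.25 ± 0.12 and stood at -0.35 ± 0.12 in CKO hearts, a difference of 1.60 ± 0.17 (limma adjusted p = 0.0028), which missed the threshold only without the high-Myl7 hearts (1.62, limma adjusted p = 0.13) among the alternatives run. Des stood at 0.91 ± 0.08 in control and 0.03 ± 0.08 in CKO hearts, where values were 1068 and 1037 FPKM after sham and 1133 and 1020 FPKM after TAC, a difference of 0.88 ± 0.12 (limma adjusted p = 0.02). For Des the call ended without heart 12, 14, 16, 31 or 32, without the high-Myl7 hearts, with only the compared groups fitted, with a prior without trend or with Myl7 as a covariate (0.80 to 1.00, limma adjusted p = 0.0633 to 0.389). Nppa, with 5.89 in control and 2.08 in CKO hearts, did not pass the test of the difference (limma adjusted p = 0.2), nor did Xirp2, with 2.59 and 0.98 (limma adjusted p = 0.052). In CKO hearts Nppa stood at 625 and 170 FPKM in sham hearts 14 and 15. It stood at 1489 and 1278 FPKM in CKO TAC hearts 13 and 31. Sham heart 14 also had high Myl7, at 372 FPKM, against 0 in sham heart 15. Among foetal genes the medians were 1.88 and 0.81, with 9 of 22 under 0.05 unadjusted. Collagens stood at 1.49 and 1.33 (6 of 21), fatty acid genes at -0.88 and -0.67 (8 of 41), and mitosis genes at 0.97 and 2.21 (17 of 24). Mki67 was 1.05 in control and 2.60 ± 0.33 in CKO hearts, and the difference did not pass after adjustment (limma adjusted p = 0.39).

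**Figure D5:**
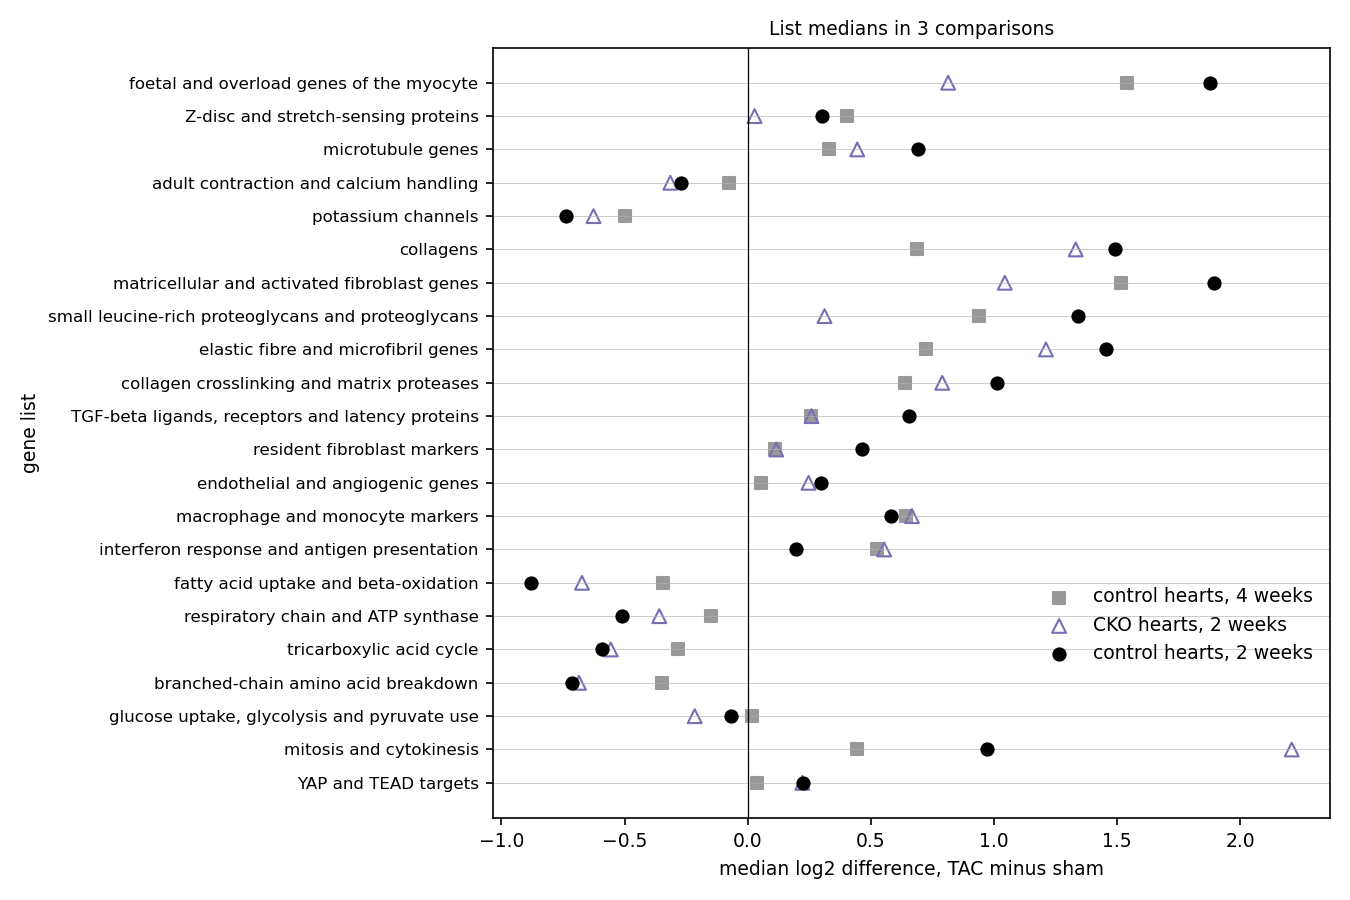
Median log2 difference between TAC and sham (x axis) of 22 gene lists (rows) in control hearts at 2 weeks (black circles), control hearts at 4 weeks (grey squares) and CKO hearts at 2 weeks (open triangles). The sham and TAC hearts differ between the 3 comparisons, and hearts with Myl7 of 10 FPKM or more are included. Respiratory chain and collagen medians lie nearer to 0 at 4 weeks, and the mitosis median is highest in CKO hearts.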

How the data were processed

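RNA of 20 mouse hearts came from the miRNeasy Mini kit and went into TruSeq Stranded mRNA libraries, per the labels' protocols. The authors deposited 1 table of FPKM per heart, and the submitters' processing notes name TopHat2 2.1.1, Bowtie2 and Cuffdiff 2.2.1 with mm10. Filters and the treatment of reads shared between genes are not given in the sources used here. FPKM values are no counts, so no count model was fitted, and gene models of overlapping or near-identical genes may share reads.

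The genes that averaged 0.5 FPKM or more over 20 hearts were taken to log2(FPKM + 0.5) and fitted with limma 3.58.1 in R 4.3.3 (means of 10 groups, trended prior, Benjamini-Hochberg adjustment over 12589 genes, threshold 0.05, two-sided). An exact permutation test of 2 hearts against 2 cannot go below p = 0.333 and was not used. The fit was tested on simulated data with independent normal noise around each gene's mean. Such data hold no atrial tissue and no effect shared by the genes of a heart, so they cannot test for either. Tables and plots were made with Python 3.11.15, pandas 2.3.3, numpy 2.4.6 and matplotlib 3.10.9. Promoters came from RefSeq and gene coordinates from GENCODE M21, both of the mm10 assembly.

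Named are the 20 largest rises and falls among called genes without overlap and with a mean of at least 1 FPKM (4 clone-named falls were passed over), members of 54 gene lists including the up to 4 called members of smallest p in each, genes whose responses differed between times or genotypes, and the check genes. A few genes under this rule are not reported here. Of 1241 listed genes 1072 were tested. The comparison, members and lists were chosen with earlier results of these data known. Alternatives were other pseudocounts (0.1 and 1), filters (none and 3 FPKM), scalings, sets of groups, priors, and hearts left out.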

Additional observations from a re-analysis of the deposited data

Results flagged for a closer look

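The responses of 3 genes differed between groups of hearts by the limma test of the difference itself. For Eln the response in control hearts was larger at 2 than at 4 weeks by 1.61 ± 0.18 on the log2 scale (limma adjusted p = 0.0055), with both TAC hearts above both sham hearts at either time. For Clu the 2-week response was larger in control than in CKO hearts by 1.60 ± 0.17 (limma adjusted p = 0.0028), and the TAC hearts lay above the sham hearts in controls and below them in CKO. For Des the difference of the same kind was 0.88 ± 0.12 (limma adjusted p = 0.02), with CKO hearts after TAC and sham overlapping. No test for a single heart apart from its group was made, since each group had 2 hearts.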

How the results depend on the processing

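Of 1386 higher and 1612 lower genes, fitting only the compared groups called 600 and 558, and leaving out hearts in which Myl7 reached 10 FPKM 483 and 636. Leaving out 1 heart at a time gave 749 (without sham heart 16) to 1049 higher and 869 (without sham heart 16) to 1255 lower genes, and 764 and 943 without TAC heart 32, where the lone heart was taken to vary like those of the other groups. The other alternatives gave 1098 to 1411 and 1380 to 1716. The count of genes whose response differed between 2 and 4 weeks, 1, was 3 with no filter, 2 with quantile normalization, with only the compared groups fitted, without the high-Myl7 hearts and with Myl7 as a covariate, and 0 to 9 with 1 heart left out. It was 0 without heart 12 or 32 and 9 without control sham heart 7 of 4 weeks. The count of genes that differed between genotypes, 2, was 4 with a pseudocount of 0.1 FPKM, 6 with a pseudocount of 1 FPKM, with no filter and with only the compared groups fitted, 5 with the 3 FPKM filter, with quantile normalization and without the high-Myl7 hearts, 1 with a prior without trend and with Myl7 as a covariate, and 1 to 5 with 1 heart left out. The causes were not tested. Of the named called genes, none changed direction under the alternatives run, and calls that ended are given in the paragraph of each gene. List medians of at least 0.5 in size (22) kept their sign throughout, and 11 of the 32 smaller medians changed sign under some alternative. No paired analysis was possible because each heart number occurs once in the series. Absolute depth is unknown, so no limit of detection can be given for low genes.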
